A study of Mus musculus with 151 samples.

Results

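The genes described here are the Ikaros family of zinc-finger transcription factors, *Ikzf1*, *Ikzf2*, *Ikzf3*, *Ikzf4* and *Ikzf5*, together with *Lbh*. They were taken by name as 6 of the 55291 genes in a table of raw read counts from single cochlear hair cells. The table holds 50 P30_WT IHCs, 55 P14_WT IHCs and 46 P14_iOHCs, each library being 1 manually picked cell. All mice were C57BL/6 and carried the Ai9 reporter and a Cre-recombinase that is expressed from the *Slc17a8* (vGlut3) locus and activated by tamoxifen (vGlut3-P2A-iCreER/+; Ai9/+). The mice of the P14_iOHCs also had 1 floxed and 1 deleted *Tbx2* allele (vGlut3-P2A-iCreER/+; Tbx2 flox/-; Ai9/+). The paper reports tamoxifen in the first days after birth for the mice of the P30_WT IHCs and for its *Tbx2* conditional knockout mice. It does not restate the timing for the cells picked at P14. WT IHCs are wild-type inner hair cells at postnatal day 14 or 30. The iOHCs are reporter-positive cells picked at day 14 by their smaller size, and none of the 6 genes was measured for the pick. The paper took larger reporter-positive cells as IHCs that had kept their fate and left them out. The P14_iOHCs were thus selected as converted cells and do not stand for all IHCs of these mice. Neither the labels nor the methods give the number of mice or tie cells to mice. Each group was therefore handled as 1 sample: spreads are between cells, no test was made, and every interval below covers counting error only.

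Ikaros family proteins bind DNA through zinc fingers near the N terminus and pair with each other through a further set near the C terminus. They recruit chromatin-remodelling co-repressors and are best known from lymphocytes. Ikzf2, also called Helios, is a regulator of outer hair cell (OHC) development, and Lbh is a transcriptional co-factor linked to Wnt signalling and enriched in OHCs. In hair cells the question was at what level each of the 6 genes was present, in how many cells, and whether the levels rose and fell together among the iOHCs.

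The family members are paralogues, so it matters whether reads from one could be counted for another. The stretch below codes for a zinc finger and is given for *Ikzf2*, *Ikzf1* and *Ikzf5*. It is the last finger that matched a search for a fixed spacing of cysteines and histidines. That search found 5 fingers in *Ikzf2*, 5 in *Ikzf1* and 3 in *Ikzf5*, and fingers with another spacing would be missed. The stretch is shown because the bases in capitals, which differ from *Ikzf2*, are where reads of these genes differ. The sequences are from the longest complete coding transcripts of GENCODE M21 (GRCm38), 5′ to 3′, 63 bases each.
Ikzf2: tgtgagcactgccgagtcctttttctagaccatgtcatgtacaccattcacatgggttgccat
Ikzf1: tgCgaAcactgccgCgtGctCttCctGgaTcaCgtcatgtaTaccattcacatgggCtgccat
Ikzf5: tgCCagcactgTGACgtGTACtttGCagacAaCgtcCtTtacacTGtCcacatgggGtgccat
In *Ikzf2* the stretch lies in coding exon sequence at chr1:69538870-69538932 on the minus strand. The others lie at chr11:11769411-11769473 (*Ikzf1*, plus strand) and chr7:131391739-131391801 (*Ikzf5*, minus). *Ikzf1* differed from *Ikzf2* at 11 of the 63 bases and *Ikzf5* at 20. Over whole transcripts, the longest identical run between *Ikzf2* and another member was 32 bases (with *Ikzf4*), and none of the 11844 different 50-base windows of *Ikzf2* occurred in *Ikzf1*, *Ikzf3*, *Ikzf4* or *Ikzf5*.

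The genes themselves lie at chr1:69531214-69687245 on the minus strand (*Ikzf2*, ENSMUSG00000025997.13), chr11:11685003-11772926 on the plus strand (*Ikzf1*), chr11:98464902-98546031 on the minus strand (*Ikzf3*), chr10:128630843-128645991 on the minus strand (*Ikzf4*), chr7:131388652-131410521 on the minus strand (*Ikzf5*) and chr17:72918305-72941947 on the plus strand (*Lbh*, ENSMUSG00000024063.13). Whether counting used the strand is not given in the sources used here. The antisense gene *Gm29114* shares exon bases with *Ikzf2* and had counts in 1 of the 46 P14_iOHCs (a group mean of 2.05 CPM) and in none of the IHCs. For *Ikzf5* the antisense neighbour *Pstk* was higher than *Ikzf5* itself, at mean levels of 35.2 to 54.4 CPM, so the values of *Ikzf5* are uncertain where the 2 genes overlap. No annotated gene shares exon bases with *Lbh*, *Ikzf1* or *Ikzf3*, and *Gm26876*, which overlaps *Ikzf4*, had counts in at most 1 cell of any group.

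Library totals were between 4326416 and 25035444 counts and fell in a lower and an upper set, at or below 10267217 and at or above 11814928. The lower set held 12 P14_iOHCs, 16 P14_WT IHCs and 23 P30_WT IHCs. Levels are given as CPM, the counts of a gene per 1000000 counts of the cell. For a gene without counts in a P14_iOHC, levels that give up to 3 counts on average remain possible. This limit equals 0.131 to 0.495 CPM depending on the library. The targeted gene *Tbx2* was at 260 ± 127 CPM (SD, n = 55 cells) in P14_WT IHCs, 193 ± 103 (n = 50) in P30_WT IHCs and 69.3 ± 87.4 (n = 46) in P14_iOHCs, where 45 of 46 cells still had counts. A count per gene does not show whether the floxed allele was lost in a given cell. The groups were compared with defining markers of their names. *Otof*, which is needed for transmitter release in IHCs, averaged 3657 CPM in P14_WT IHCs and 430 in P14_iOHCs, and *Slc26a5*, which encodes the OHC motor protein prestin, averaged 0.146 and 1146 CPM. Supporting-cell markers also moved with the iOHC group. Of the 14 of 17 such markers that passed the filter on counts, 10 were more than 4-fold higher in P14_iOHCs and 1 was lower. Of all tested genes, 8.74% were higher and 5.12% lower. Their mean log2(CPM + 1) ran from 0.704 to 4.82 in P14_WT IHCs and from 0.685 to 6.45 in P14_iOHCs, 13 of which lay above every P14_WT IHC. *Prox1*, a defining marker of supporting cells around OHCs, was at 0 in all cells of both P14 groups. *Fgfr3* and *Hes5*, of the same list, did not pass the filter either but had counts. *Fgfr3* had 468 counts in P14_iOHCs and 1 in P14_WT IHCs, and *Hes5* had 1358 and 581.

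*Ikzf2* was close to absent from IHCs of both ages and abundant in iOHCs. In P14_WT IHCs it was present as a single count in 1 of 55 cells (1.82%, exact 95% interval 0.0460 to 9.72%), against a summed total of 791238321 counts. In P30_WT IHCs it had 11 counts in 5 of 50 cells, with no cell above 4 counts, and the cell values ran from 0 over a median of 0 to 0.238 CPM. In P14_iOHCs it was found in 45 of 46 cells (97.8%, 88.5 to 99.9%), with 208182 counts in all. The lowest P14_iOHC was at 0, the median at 262 and the highest at 1866 CPM, and the mean was 309 ± 287 CPM (SD, n = 46). Apart from the cell at 0, the groups did not overlap: the lowest of the other P14_iOHCs was at 68.6 CPM and the highest IHC of either age at 0.238 CPM.

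The ratio of the summed counts per summed total was 232305 between P14_iOHCs and P14_WT IHCs. Because it rests on 1 count in the IHCs, its counting interval is wide, from 41693.7 to 9175601.3. On the log2 scale the ratio of mean CPM was 18.12. With every group level raised to at least 3 counts over the group, the log2 ratio was 16.31 and ranked 2 among 13673 genes, those that reached 5 counts or more in no fewer than 10 P14 cells. *Ikzf2* passed this filter through the P14_iOHCs alone, with 45 cells of at least 5 counts and 0 among the P14_WT IHCs. Its IHC level was set by the limit of 3 counts, so the rank mainly reflects its level in P14_iOHCs.

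*Lbh* followed the same pattern between groups, with a low and patchy presence in IHCs. In P14_WT IHCs it was found in 13 of 55 cells (23.6%, exact 95% interval 13.2 to 37.0%), where the cell values ran from 0 over a median of 0 to 51.1 CPM around a mean of 4.00 ± 9.94 (SD). In P30_WT IHCs it was found in 7 of 50 cells (14.0%, 5.82 to 26.7%), and values ran from 0 over a median of 0 to 72.2 CPM, with a mean of 2.93 ± 12.0. All 46 P14_iOHCs had *Lbh* counts. Their lowest value was 0.280, the median 810 and the highest 2301 CPM. The mean was 949 ± 598 CPM. Again 1 P14_iOHC lay among the IHCs, and the next lowest, at 105 CPM, was above every IHC. The log2 ratio of mean CPM between P14_iOHCs and P14_WT IHCs was 7.89, a 237-fold difference.

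A ratio past 4-fold was common in this comparison: 8.74% of the 13673 genes were higher in P14_iOHCs and 5.12% lower. Of the 6 genes only *Ikzf2*, *Lbh* and *Ikzf5* passed the filter on counts, and *Ikzf2* and *Lbh* were past 4-fold. A gap between cells as clean as theirs was rare. In at least 45 of 46 P14_iOHCs the level was above every P14_WT IHC for 0.0366% of the tested genes, which are 5 genes, named here after their values were seen: *Aqp11*, *Ikzf2*, *Lbh*, *Ocm* and *Slc26a5*. *Ocm* encodes the calcium buffer oncomodulin of OHCs, and *Aqp11* an aquaporin. The separation was complete for *Aqp11* and *Slc26a5* (46 of 46 cells), and 1 cell was missing for each of *Ikzf2*, *Lbh* and *Ocm*. The cut-off of 45 cells is the number that *Ikzf2* and *Lbh* each reached, so it placed both among the 5 genes. A cut-off of 46 would leave both out.

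**Figure D1:**
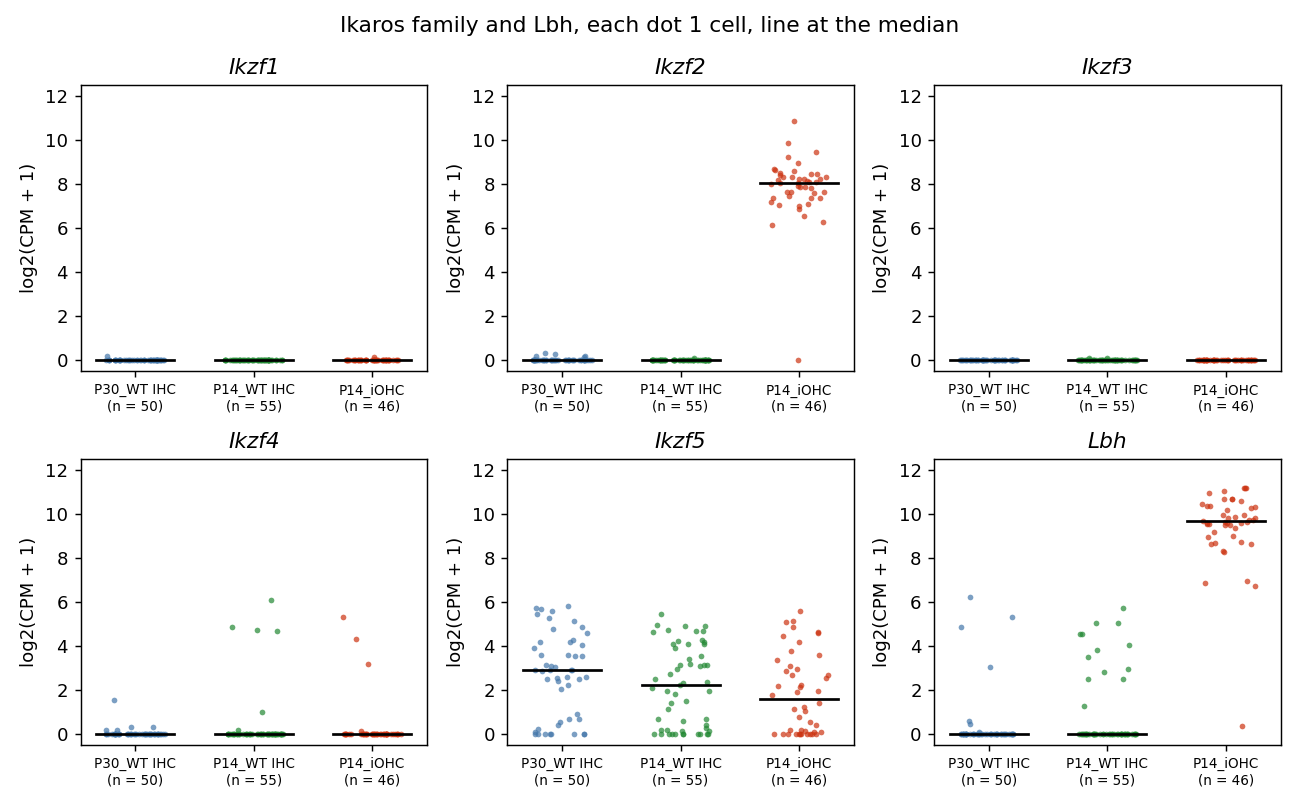
Level of each gene in every cell, as log2(CPM + 1), for 50 P30_WT IHCs, 55 P14_WT IHCs and 46 P14_iOHCs; each dot is 1 cell and the line marks the median of the group. *Ikzf2* and *Lbh* are high in all but 1 P14_iOHC each, *Ikzf5* spreads over the same range in every group, *Ikzf4* is seen in a few cells and *Ikzf1* and *Ikzf3* lie at 0 almost throughout.

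*Ikzf5*, a broadly expressed family member, was the only Ikaros gene found in most cells of all groups. It was detected in 42 of 50 P30_WT IHCs (84.0%, exact 95% interval 70.9 to 92.8%), 44 of 55 P14_WT IHCs (interval 67.0 to 89.6%) and 35 of 46 P14_iOHCs (76.1%, 61.2 to 87.4%). The lowest cell of each group was at 0. Median and highest level were 6.36 and 54.4 CPM for P30_WT IHCs, 3.61 and 41.95 CPM for P14_WT IHCs, and 1.99 and 47.01 CPM for P14_iOHCs. Its means were 12.1 ± 15.2, 8.11 ± 10.2 and 6.95 ± 10.99 CPM (SD), so each SD was larger than the mean and the ranges of the 3 groups overlapped almost fully. The log2 ratio of P14_iOHCs over P14_WT IHCs was -0.22, and 0.48 among cells of the lower set of totals against -0.56 in the upper set, so no direction can be given.

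*Ikzf4*, known as Eos, was found in few cells, but in some of them clearly above the counting limit. It had counts in 6 of 55 P14_WT IHCs, of which 4 were above 10 CPM, with a highest value of 67.5 CPM. It had counts in 4 of 46 P14_iOHCs, 2 of them above 10 CPM and the highest at 37.8 CPM. In P30_WT IHCs it was found in 5 of 50 cells, with a highest value of 1.85 CPM. Its group means of 0.0522, 2.66 and 1.40 CPM in P30_WT IHCs, P14_WT IHCs and P14_iOHCs rest on these few cells, the groups overlap at 0, and it did not pass the filter on counts in either comparison.

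*Ikzf1*, the founding Ikaros gene, and *Ikzf3*, known as Aiolos, are lymphocyte genes and were at the limit of detection. *Ikzf1* had 1 count in 1 P30_WT IHC, 1 count in 1 P14_iOHC and none in P14_WT IHCs. *Ikzf3* had 2 counts, in 2 P14_WT IHCs, and none in the other cells. All these sums are within 3 counts per group, which corresponded to 0.00379 to 0.00458 CPM over the summed totals, so no ratio is given. Immune-cell markers were also near 0: the median of their summed level was 0 CPM in each group, with single cells up to 67.2 CPM, and *Ptprc*, the pan-leukocyte marker CD45, had counts in 1 to 3 cells of a group.

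Levels of different genes can be compared only per length. As TPM, the counts per length of merged exons scaled to a sum of 1000000 per cell, *Lbh* averaged 640 ± 390 (SD, n = 46 cells) and *Ikzf2* 57.6 ± 50.4 in P14_iOHCs. By mean TPM *Lbh* ranked 172 and *Ikzf2* 1955 among the 53292 genes with a length, and *Ikzf5* followed at 2.72 ± 4.40 TPM and *Ikzf4* at 0.516 ± 2.26. In mean TPM *Lbh* was thus well above *Ikzf2*, *Ikzf2* above *Ikzf5*, and *Ikzf5* above *Ikzf4*. The means of *Ikzf5* and *Ikzf4* were smaller than their SDs, but *Ikzf5* had counts in 35 of the 46 cells and *Ikzf4* in few. In P14_WT IHCs *Ikzf5* (3.49 ± 4.41 TPM) and *Lbh* (3.12 ± 7.73) led the order with similar means. *Ikzf5* had counts in 44 of these 55 cells and *Lbh* in 13. In P30_WT IHCs *Ikzf5* was at 4.87 ± 6.14 and *Lbh* at 2.23 ± 9.27 TPM.

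Between P14 and P30, neither *Ikzf5* nor *Lbh* was past 4-fold in IHCs, in a comparison in which 2.26% of 12946 genes were higher at P30 and 3.06% lower. This comparison uses the same P14_WT IHCs as the one above. The log2 ratio of P30_WT IHCs over P14_WT IHCs was 0.58 for *Ikzf5*, with 0.51 among cells of lower and 0.66 among cells of higher totals. For *Lbh* it was -0.45 over all cells, -2.53 in the lower set and 0.09 in the upper set, and it depended on the few IHCs with *Lbh* counts. Leaving out single cells moved it from -1.40 to -0.10. The other 4 genes did not pass the filter on counts in this comparison.

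The promoter of *Lbh* is shown because *Lbh* was the only gene with a large difference between groups that matched the RefSeq promoter table, which held 3 of the 6 genes (*Ikzf1*, *Ikzf5* and *Lbh*). The 250 bases before its start lie at chr17:72918055-72918304 (GRCm38.p6, plus strand, 5′ to 3′), with matches to the motifs named below in capitals.
Lbh: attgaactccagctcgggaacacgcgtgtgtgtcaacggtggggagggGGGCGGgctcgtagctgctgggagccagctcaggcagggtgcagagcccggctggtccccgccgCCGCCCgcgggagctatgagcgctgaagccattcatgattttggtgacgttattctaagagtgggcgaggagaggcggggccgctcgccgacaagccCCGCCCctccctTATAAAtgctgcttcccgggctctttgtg
Searched on both strands, it held the TATA-box letters TATAAA once, 29 to 24 bases before the start, and the GC-box letters GGGCGG at 3 places, none of which overlapped another match. Of all 32851 RefSeq promoter windows of the same length, 12.4% held TATAAA and 32.7% GGGCGG. The T-box half-site letters AGGTGT (in 11.8% of windows) and the Ikaros core letters TGGGAA (in 21.6%) were not in this window.

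A few iOHCs, picked out after their values were seen, stood apart from the others in *Ikzf2* or *Lbh*. The P14_iOHC with no *Ikzf2* count (cell 18) had a total of 9083541, at which 3 counts are 0.330 CPM. It had *Lbh* at 745 CPM, rank 30 of 46 from the top, and *Slc26a5* at 514 CPM, rank 37. It also held the highest *Slc17a8* (935 CPM) and *Fgf8* (152 CPM) of the P14_iOHCs, both genes of IHCs, and *Otof* at 1500 CPM, rank 3. The highest *Ikzf5* of the group, 47.01 CPM, was in the same cell.

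The P14_iOHC with the lowest *Lbh* (cell 44) was also low in *Ikzf2*. It had 6 *Lbh* counts, 0.280 CPM, in a deep library of 21446854 counts, and *Ikzf2* at 75.5 CPM, rank 44. It was also the lowest of the group in *Slc26a5* (142 CPM), *Ocm* (614 CPM) and *Strip2* (1.12 CPM), and the highest in *Otof* (3235 CPM) and *Tbx2* (427 CPM). Its *Otof* was within the range of the P14_WT IHCs, which began at 2168 CPM. The cell next above cell 18 in *Ikzf2* (cell 29, 68.6 CPM) had the highest *Slc7a14* of the group (320 CPM) and *Otof* at 1320 CPM, rank 4. The 3 P14_iOHCs lowest in *Ikzf2* ranked 3, 4 and 1 in *Otof*. The cell ranked 2 in *Otof* (cell 1, 2307 CPM) was also within the range of the P14_WT IHCs and had *Ikzf2* at 197 CPM, rank 32, and *Lbh* at 390 CPM.

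At the other end, the highest *Ikzf2*, 1866 CPM (cell 13), came with the highest *Ocm* (74981 CPM) and the lowest *Otof* (0.104 CPM) of the P14_iOHCs, and with *Lbh* at 501 CPM, rank 35. The second highest *Ikzf2*, 938 CPM (cell 27), came with the second highest *Ocm* (69471 CPM). The coefficient of variation of *Ikzf2* among P14_iOHCs was 0.930, and 0.610 without cell 13, beside 0.630 for *Lbh*, 0.598 for *Slc26a5* and 0.435 for *Ocm*.

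**Figure D2:**
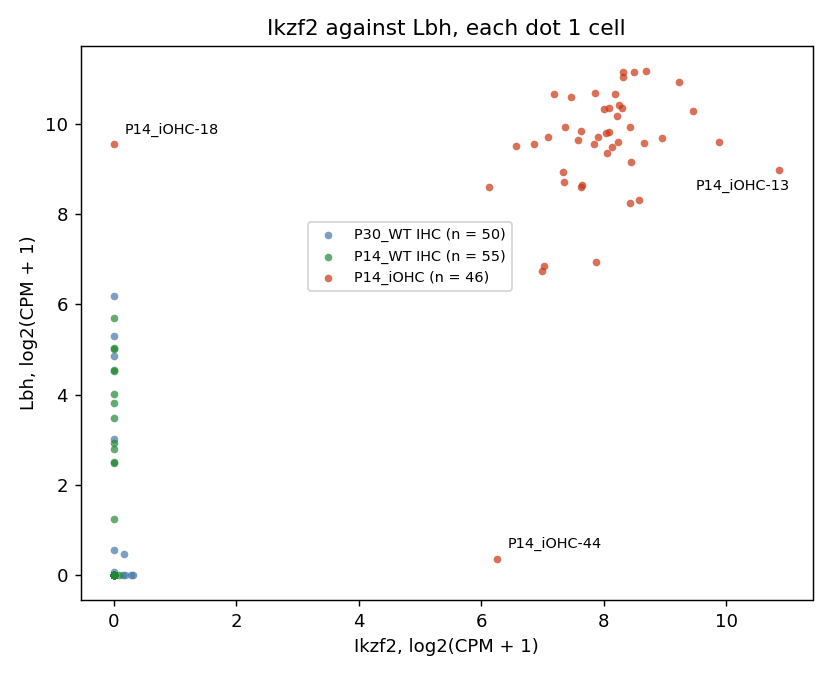
*Ikzf2* against *Lbh*, both as log2(CPM + 1), each dot 1 cell, for P30_WT IHCs, P14_WT IHCs and P14_iOHCs. The P14_iOHCs form a group high in both genes, from which cell 18 (no *Ikzf2*, *Lbh* at 745 CPM) and cell 44 (*Ikzf2* at 75.5 CPM, *Lbh* at 0.280 CPM) stand apart, and IHCs with *Lbh* counts had almost no *Ikzf2*.

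Across the 46 P14_iOHCs, *Ikzf2* and *Lbh* had a Spearman rho of 0.37 and a Pearson r on log2(CPM + 1) of 0.23. These and all following correlations are descriptions across cells that share their library preparation and differ in depth and in the number of genes detected. Among the 12 P14_iOHCs with lower totals the rho was 0.28, and among the 34 with higher totals 0.48. With the 2 cells of most extreme *Ikzf2* left out it was 0.45. Among the 4738 other genes detected in at least 80% of P14_iOHCs, 2.43% had as high a rho with *Ikzf2*, and 95% of these genes lay between -0.39 and 0.37. Both genes fell as the number of detected genes rose, with a rho of -0.35 for *Ikzf2* and -0.38 for *Lbh*, and the part of this in their shared variation was not tested. Their rho with the supporting-cell score was -0.18 and -0.28. In the 33 P14_iOHCs that were not above every P14_WT IHC in that score, the rho between them was 0.34, *Ikzf2* averaged 340 ± 332 CPM and *Lbh* 1096 ± 622 CPM.

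Both genes varied with some OHC markers and less with others. *Ikzf2* had a rho of 0.50 with *Ocm*, 0.42 with *Slc26a5*, 0.42 with the actin-nucleating *Lmod3* and 0.41 with the calcium-binding *Sri*. With the OHC markers *Strip2* and *Chrna10* the rho of *Ikzf2* was lower, at 0.24 and 0.18. *Lbh* had its highest values among these markers with *Sri* (0.62), *Ocm* (0.54) and *Slc26a5* (0.41). Its values were lower with *Chrna10* (0.22), *Strip2* (0.18) and *Lmod3* (0.17). In the lower and upper sets of totals the rho of *Ikzf2* was 0.55 and 0.50 with *Ocm* and 0.75 and 0.37 with *Slc26a5*. With *Lmod3* the rho of *Ikzf2* was 0.72 and 0.24 in these sets. That of *Lbh* was 0.50 and 0.70 with *Sri*.

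With IHC genes the values were mixed, and no difference between *Ikzf2* and *Lbh* was tested. *Ikzf2* had a rho of -0.38 with *Otof*, which was -0.62 and -0.24 in the lower and upper sets, and *Lbh* had 0.12. With *Calb2*, the calretinin gene, the rho was 0.08 for *Ikzf2* and 0.32 for *Lbh*. For *Slc17a8* the pair of values was -0.17 and 0.03, for *Fgf8* -0.06 and 0.27, and for *Atp2a3* 0.06 and 0.13. With the remaining *Tbx2* counts it was -0.06 for *Ikzf2* and -0.33 for *Lbh*. *Slc7a14* had counts in 7 of 46 P14_iOHCs, of which 4 were above 1 CPM (cells 1, 18, 29 and 44), so its rho of -0.45 with *Ikzf2* and -0.31 with *Lbh* rests on these few cells. *Ikzf5* had a rho of -0.22 with *Ikzf2*, which was -0.63 in the lower and -0.03 in the upper set, and 0.00 with *Lbh*. *Ikzf4* was in too few cells for a correlation.

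**Figure D3:**
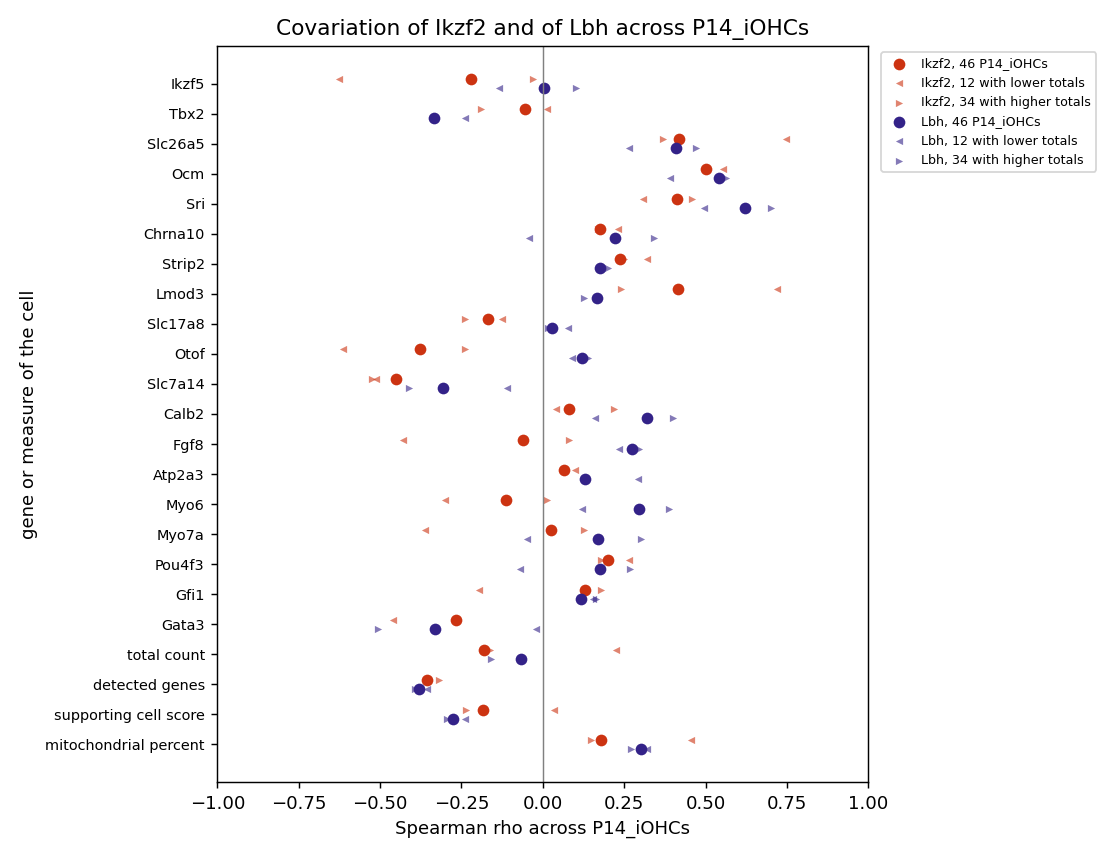
Spearman rho of *Ikzf2* and of *Lbh* with other genes and with measures of the cell, across the 46 P14_iOHCs (circles) and within the 12 and 34 cells of lower and higher totals (triangles). Both lie at 0.41 or above with *Slc26a5*, *Ocm* and *Sri*, and the values read -0.38 and 0.12 at *Otof* and -0.06 and -0.33 at *Tbx2*; *Slc7a14* had counts in 7 of the cells.

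The 5 genes whose levels went most closely with *Ikzf2* were *Sorbs2*, an actin-binding adaptor (rho 0.63), *Nsmaf* (0.58), the small GTPase gene *Arf5* (0.58), *Ndufb4*, a subunit of respiratory complex I (0.56), and *Strc*, which encodes stereocilin of the OHC bundle (0.55). In the lower and upper sets *Sorbs2* had 0.76 and 0.55, and *Strc* 0.71 and 0.47. Both genes were picked by their rho over these same cells, so the values in the sets are no separate check. *Sorbs2* averaged 1328 ± 673 CPM in P14_iOHCs and 365 in P14_WT IHCs, and *Strc* 178 ± 125 and 25.3. The most opposed were the immediate-early gene *Junb* (-0.58), *Fth1*, the ferritin heavy chain (-0.58), and *Gm7935* (-0.57). *Gm7935* is a processed pseudogene at 0.730 CPM whose counts could be shared with its parent gene. *Junb* had a rho of 0.67 with the number of detected genes, *Fth1* 0.22 and *Gm7935* 0.24. For the 5 closest genes this rho was -0.44 (*Sorbs2*), -0.10 (*Nsmaf*), -0.59 (*Arf5*), -0.59 (*Ndufb4*) and -0.48 (*Strc*). *Ikzf2* itself was at -0.35, and how far the number of detected genes enters these values was not tested.

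For *Lbh* the closest were *Gm1673* (rho 0.72), *Gm45716* (0.69), the sulfotransferase gene *Chst2* (0.69), *Ccz1* (0.68) and the peroxiredoxin gene *Prdx5* (0.67). *Gm1673* averaged 527 ± 355 CPM in P14_iOHCs and 73.3 in P14_WT IHCs, and had a rho of 0.18 with *Ikzf2*. The most opposed were the small GTPase gene *Arf6* (-0.60), the G-protein subunit gene *Gnb1* (-0.59) and *Mif* (-0.57). With the number of detected genes, *Gm1673* had a rho of -0.25, *Gm45716* -0.37, *Chst2* -0.46, *Ccz1* -0.41 and *Prdx5* -0.36. *Arf6* had 0.58 with it, *Gnb1* 0.37 and *Mif* 0.50. Among the 20 genes closest to *Ikzf2* and the 20 closest to *Lbh*, 2 were in both lists, *Ndufb4* and *Sh3gl3*, which is 10% of each list. Each list was taken from 4738 genes, and how many shared genes other pairs of genes would give was not tested. *Ndufb4* had a rho of 0.56 with *Ikzf2* and 0.64 with *Lbh*.

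Genes of the co-repressor complexes that Ikaros proteins recruit were present in all groups. Of 19 genes, 18 passed the filter on counts in each comparison, and none was past 4-fold in either. With 8.74% of all tested genes higher and 5.12% lower in P14_iOHCs, and 2.26% and 3.06% at P30, a count of 0 among 18 does not set the list apart. In the lower set of totals *Mta1* was past 4-fold lower in P14_iOHCs. Between P14_iOHCs and P14_WT IHCs their log2 ratios ran from -0.79 (*Rbbp4*, a histone-binding subunit) to 0.77 (*Sin3b*, a scaffold), with a median of 0.10, beside 0.08 over all tested genes. *Hdac2*, a histone deacetylase, averaged 124 ± 98.9 CPM in P14_iOHCs and 73.1 ± 63.5 in P14_WT IHCs, and *Rbbp4* 195 ± 79.4 and 336 ± 129 (SD). The difference in *Hdac2* was smaller than the SD of either group, and that in *Rbbp4* was larger than both SDs while the ranges of cells overlapped, from 59.4 to 370 and from 97.8 to 690 CPM. Between P30_WT and P14_WT IHCs the ratios ran from -1.27 (*Chd3*, a remodelling ATPase) to 0.42 (*Sin3a*), with a median of -0.27.

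Of 17 genes of the Wnt pathway, to which Lbh has been linked, 13 passed the filter in P14_iOHCs against P14_WT IHCs. Past 4-fold higher were 4 of them, and none was lower, beside 8.74% and 5.12% of all tested genes. Their median log2 ratio was 1.30, beside 0.08 over all tested genes. The 4 were the transcription factor genes *Tcf7l1* (log2 ratio 4.78) and *Tcf7l2* (2.42), the ubiquitin ligase gene *Rnf43* (2.63) and the R-spondin receptor gene *Lgr6* (2.01). They were low and patchy, *Tcf7l1* in 11 and *Lgr6* in 24 of 46 P14_iOHCs, and the averages were 4.93 ± 19.4 CPM for *Tcf7l1* and 40.3 ± 73.5 CPM for *Lgr6*. *Ctnnb1*, which encodes beta-catenin, was at a log2 ratio of 0.62, and *Axin2*, a common readout of the pathway, at 1.45 with means of 1.22 CPM in P14_iOHCs and 0.446 in P14_WT IHCs. Without the 13 P14_iOHCs above every P14_WT IHC in the supporting-cell score, 0 of the 10 genes passing the filter were past 4-fold and the median was 0.16. In the lower set of totals the count was 0 of 8, and in the upper set 2 of 12. From summed counts over summed totals it was 2 of 13, *Tcf7l1* and *Rnf43*. Between the ages of IHCs, 10 passed and 1 was lower at P30, *Lgr6* (-2.45), with none higher.

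Of 10 hair cell regulators, 7 passed the filter and none was past 4-fold in either comparison. Beside the 8.74% and 5.12% of all tested genes past 4-fold in P14_iOHCs, 0 of 7 does not set these genes apart. Between P14_iOHCs and P14_WT IHCs *Pou4f3*, needed for hair cell survival, was at a log2 ratio of 0.08 (626 against 591 CPM), *Gfi1* at 0.45, *Gata3* at 0.50 and *Tbx2* at -1.91. *Insm1*, an early OHC regulator, had counts in 2 of 46 P14_iOHCs with a highest value of 0.0991 CPM. *Bcl11b* had none in either P14 group, which allows a summed level of up to 0.00423 CPM in the P14_iOHCs.

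**Figure D4:**
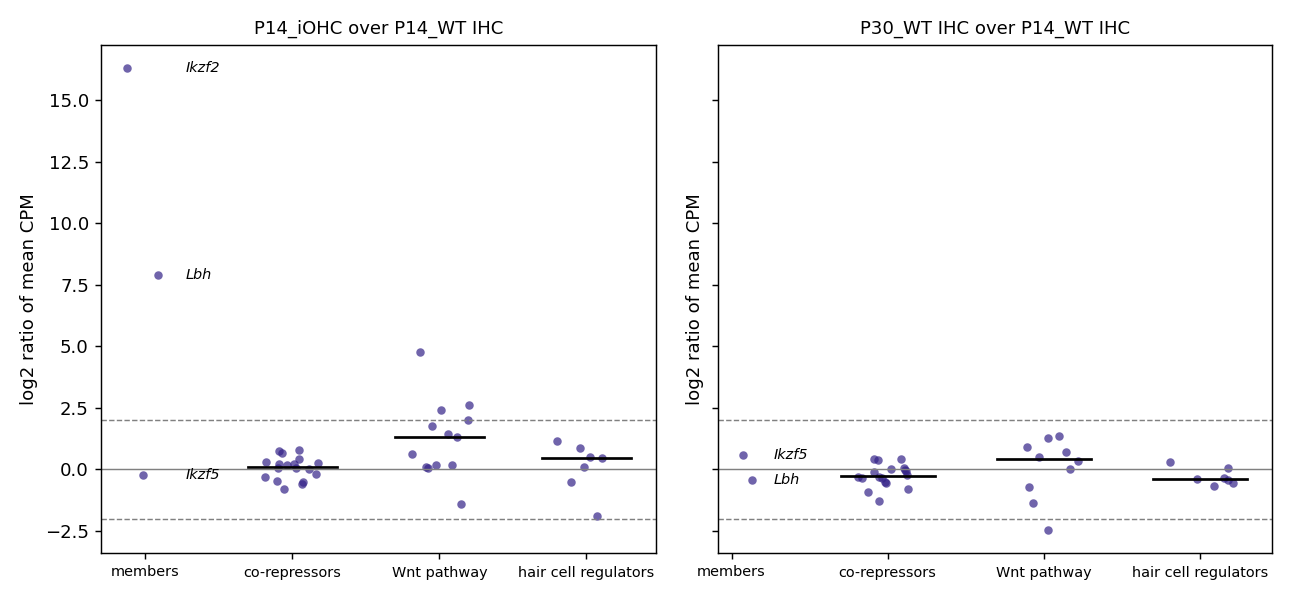
Log2 ratio of mean CPM for P14_iOHCs over P14_WT IHCs (left) and P30_WT IHCs over P14_WT IHCs (right), each dot 1 gene that passed the filter on counts, with solid bars at list medians and dashed lines at 4-fold. Group levels are raised to at least 3 counts, which sets *Ikzf2* at 16.31; *Lbh* lies at 7.89, *Ikzf5* at -0.22, and all 18 co-repressor genes lie within the dashed lines on both sides.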

How the data were processed

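RNA of single, manually picked cells was amplified with a Smart-Seq HT kit and sequenced as paired-end reads. The authors aligned the reads to GRCm38 (mm10) with Hisat2 and counted them per gene with HTSeq; the submitters' processing notes name FastQC 0.11.9, Trimmomatic 0.39, HISAT2 2.1.0, StringTie 1.3.5 and HTSeq 0.10.0. The deposited values are raw counts, without normalization or molecular identifiers, for 55291 genes in 151 cells. All columns matched a sample's title. The annotation and the treatment of multiply aligned reads are not given in the sources used here. Amplification of single cells can leave a transcript uncounted, so a 0 is not absence.

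CPM is the count over the cell's total times 1000000. TPM used merged exon lengths of GENCODE M21 and is not the authors'. Group levels are means of CPM over cells. As no label ties cells to mice, groups count as 1 sample each and no test was made; a gene was taken as different when the ratio of mean CPM exceeded 4 in either direction, among genes that reached 5 counts or more in no fewer than 10 cells of both groups together, with levels raised to at least 3 counts over the group. Shares of cells have exact Clopper-Pearson intervals and sums have exact Poisson limits, both at 95%. Correlations across cells are Spearman's rho on CPM and Pearson's r on log2(CPM + 1). No 2 libraries were identical (0 pairs).

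The genes and the lists were chosen with earlier results of these data known. Named genes are the 6 members, *Tbx2*, the 5 genes of highest and 3 of lowest rho with *Ikzf2* and with *Lbh* among genes detected in at least 80% of P14_iOHCs, list genes past 4-fold, up to 4 examples a list by mean CPM, and cell and list markers whose values are set beside them. Other genes were named after their values were seen. The alternatives were other scalings, filters and thresholds, sets of totals and omitted cells. Lists for glia, neurons, mesenchyme and blood were only checked: of their tested genes, *Mbp* (glia) and *Lum* (mesenchyme) were past 4-fold higher in P14_iOHCs, and none at P30. Python 3.11.15, numpy 2.4.6, scipy 1.17.1, pandas 2.3.3, matplotlib 3.10.9, and R 4.3.3 with edgeR 4.0.16 (TMM factors only) were used, with the seed 20220. The results for 1 marker gene and the finger sequences of *Ikzf3* and *Ikzf4* are not reported here.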

Additional observations from a re-analysis of the deposited data

How the results depend on the processing

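The log2 ratio of *Ikzf2* between P14_iOHCs and P14_WT IHCs stayed between 17.48 and 18.26 and that of *Lbh* between 7.60 and 8.94 under every scaling, set of totals and omission of cells that was run, except that *Ikzf2* has no ratio in the lower set of totals, or without the 1 P14_WT IHC with a count, since the other P14_WT IHCs are at 0. Each of these *Ikzf2* ratios divides by the same single count, so their narrow range does not cover its counting error. With group levels raised to at least 3 counts the *Ikzf2* value was 16.31. Leaving out single cells gave 17.95 to 18.16 for *Ikzf2* and 7.84 to 8.24 for *Lbh*. Without cells 18 and 44, an omission chosen after seeing the data, they were 18.18 and 7.93, and the rho between the genes was 0.33. That rho was 0.23 as Pearson's r and 0.48 in the upper set of totals, and leaving out single cells gave 0.33 to 0.43. The log2 ratio of *Lbh* between P30_WT and P14_WT IHCs was -2.53 in the lower set of totals, and -1.40 to -0.10 without single cells. With at least 5 counts required, *Ikzf2* was found in 0 P30_WT IHCs and 0 P14_WT IHCs, and still in 45 P14_iOHCs. The mean level of *Ikzf2* over that of *Lbh* in P14_iOHCs was 0.325 in CPM and 0.0900 in TPM. With counts thinned to 4326416 per cell, detection was 2, 1 and 45 cells.

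Counts of genes past 4-fold between P14_iOHCs and P14_WT IHCs, 1195 higher and 700 lower, became 339 and 465 in the lower set of totals, 5047 and 4022 without a filter on counts, and 2517 and 1809 at 2-fold. Without the 13 P14_iOHCs of high supporting-cell score 671 were higher and 774 lower. Between the ages the counts of 292 higher and 396 lower became 3237 and 3804 without the filter, and 1143 and 1341 at 2-fold. The share of higher among these calls was 63.1% for P14_iOHCs, 42.2% in the lower set and 46.4% without the 13 cells. The causes were not tested, beyond the number of genes and cells each alternative leaves. No paired analysis was possible because no result comes from a test and cell numbers do not tie cells of different groups. The number of mice is unknown, so spread between cells cannot stand for spread between animals, and a count of 0 in 1 amplified cell may be a transcript that was lost.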
